A study of Mus musculus with 2 samples.

Results

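The clustered histone genes were followed in the poly(A) RNA of mouse hematopoietic stem and progenitor cells. They were taken by symbol: every gene of the deposited matrix whose name starts with Hist1h, Hist2h, Hist3h or Hist4h. This gave 67 of 31053 genes, 54 of them Hist1h, 10 Hist2h, 2 Hist3h and 1 Hist4h. The cells were LSK cells (lineage-negative, Sca-1-positive, c-Kit-positive) of C57BL/6JRj mice, sorted from old animals (22 to 28 months) and young animals (3 to 5 months), with several mice pooled into 1 library for each age. CITE-Seq read transcripts and antibody tags against surface proteins from the same cells, and both were counted by unique molecular identifiers (UMIs). The labels do not pair the barcode suffix of a library (1 or 2) with an age, so old and young cells were not compared. Values are given for all cells and for each library, no test across samples was possible, and every interval is a 95% exact interval that covers counting error only. The cells of a group are not replicates of it, and since the 2 libraries are also the 2 ages, a difference between them cannot be told apart from age.

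Histone proteins package DNA: H2A, H2B, H3 and H4 form the core of the nucleosome and H1 binds the DNA between nucleosomes. Cells make most of them during S phase, from intronless genes that lie in clusters. The transcripts of these genes usually end just past a conserved stem-loop, which the stem-loop binding protein Slbp recognises, and carry no poly(A) tail. Some of the same genes can also give longer transcripts with a poly(A) tail. The 3′ assay used here primes on runs of A, so it sees the polyadenylated part of histone RNA and whatever else it primes on, and not the bulk of the S phase transcripts. How much of each gene's RNA is read can therefore differ between members, and levels are compared here within a gene and not between genes.

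The members differed in their annotated 3′ ends. The 16 bases of the stem-loop were searched as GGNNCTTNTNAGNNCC on the sense strand of the GENCODE M21 transcripts (GRCm38). They were found in 46 of the 67 members, and in 90 of the 21810 other protein-coding genes (0.413%). The stretches below are those of a pair of members with steep differences between cycling and other cells and of 3 members with small ones, 5′ to 3′ with the stem-loop in capitals. They lie at chr13:23751567-23751592 (plus strand), chr13:21833026-21833049 (minus), chr13:23739507-23739532 (plus), chr13:23683472-23683497 (minus) and chr11:58955167-58955192 (plus), all in the 3′ UTR.
Hist1h2ab: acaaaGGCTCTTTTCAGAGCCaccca
Hist1h2ap: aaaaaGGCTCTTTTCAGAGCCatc
Hist1h1c: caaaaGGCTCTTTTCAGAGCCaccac
Hist1h2ac: ccaaaGGCTCTTTTCAGAGCCcccac
Hist3h2a: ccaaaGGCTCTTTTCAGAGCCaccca

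The stem-loop itself was spelled alike in these 5 genes. They differed in how far the annotated transcript ran on: 11 bases past the stem-loop in Hist1h2ab and 3 in Hist1h2ap, against 840 in Hist1h1c, 2010 in Hist1h2ac and 1643 in Hist3h2a. The long transcripts of Hist1h1c and Hist3h2a closed with the poly(A) signal AATAAA, shown in capitals in the stretches below (chr13:23740338-23740367 and chr11:58956797-58956826, both on the plus strand), 20 and 28 bases before the annotated end.
Hist1h1c: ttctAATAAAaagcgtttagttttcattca
Hist3h2a: AATAAAataagagtacgtgtataacataag

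Hist1h2bc (chr13:23684199-23692908, plus strand), an H2B gene, was annotated with a spliced transcript of 2 exons and a 3′ UTR of up to 742 bases, and the stem-loop letters were not found in it. It lies head to head with the H2A gene Hist1h2ac (chr13:23681467-23683948, minus strand), with 250 bases between the annotated starts. The RefSeq window from 250 bases before to 50 after the start of Hist1h2ac (GRCm38.p6, chr13:23683910-23684209, minus strand) therefore also takes in the start of Hist1h2bc. It is printed with that of Hist1h1b (chr13:21780576-21780875, minus strand), an H1 gene with the steepest difference between cycling and other cells. Capitals mark the TATA box (TATAAA), the CCAAT box (CCAAT) and the octamer (ATTTGCAT), each searched on both strands and with no overlap between them in these windows.
Hist1h2ac: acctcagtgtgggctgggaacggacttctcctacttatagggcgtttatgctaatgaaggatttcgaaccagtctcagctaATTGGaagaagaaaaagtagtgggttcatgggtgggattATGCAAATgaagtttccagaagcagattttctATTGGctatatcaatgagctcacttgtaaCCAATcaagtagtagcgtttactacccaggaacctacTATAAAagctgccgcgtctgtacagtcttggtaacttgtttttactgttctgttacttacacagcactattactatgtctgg
Hist1h1b: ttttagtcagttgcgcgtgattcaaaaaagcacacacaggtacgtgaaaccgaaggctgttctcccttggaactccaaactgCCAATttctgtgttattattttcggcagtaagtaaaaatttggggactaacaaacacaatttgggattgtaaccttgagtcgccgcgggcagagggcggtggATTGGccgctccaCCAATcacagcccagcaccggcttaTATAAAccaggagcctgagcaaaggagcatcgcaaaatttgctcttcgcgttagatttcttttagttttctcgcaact

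Both windows held 1 TATAAA and 3 CCAAT, and the shared window of Hist1h2ac and Hist1h2bc also held 1 octamer. RefSeq windows were matched for 28 of the 33 members with at least 100 UMIs. CCAAT was found in 25 of them (89.3%) and in 37.4% of all 32851 windows, TATAAA in 15 (53.6%) and in 13.6%, and the octamer in 10 (35.7%) and in 1.74%. All 10 members with an octamer were among the 14 H2A and H2B genes matched, and none were among the 14 H1, H3 and H4 genes. A match is a run of letters and was not tested as a binding site.

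Of 4688 cells, the 4068 with under 10% mitochondrial UMIs and over 1500 genes were kept (1524 of suffix 1 and 2544 of suffix 2), and the libraries shared no barcode. They held 27345371 and 44021962 UMIs. Cells with a Mki67 UMI, which encodes the proliferation marker Ki-67, were taken as cycling: 928 cells with a median of 27068 UMIs, against 3140 cells without it and a median of 13800. A cell in cycle can lack the UMI by chance, and how many cells held a stray Mki67 UMI was not estimated. The cells with a Mki67 UMI were deeper, so levels were scaled to 1000000 UMIs of the same cells (CPM). Of marker lists for other cells, B and plasma cell genes summed to 3387 CPM without Mki67 and 1754 with it, and 12 cells drew 1% or more of their UMIs from these genes. T, erythroid, macrophage and neutrophil genes summed to at most 13.7 CPM in either class.

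The members held 31091 UMIs. Hist1h2bq and Hist1h2ba had none, 15 members had 1 to 19, 17 had 20 to 99 and 33 had 100 or more. The 6 with the most UMIs (Hist1h1b, Hist1h2bc, Hist1h4i, Hist1h2ac, Hist1h1c and Hist1h2ae) held 15487. The 32 detected members under 100 UMIs held only 880 in all. Reads that match several near-identical histone genes are usually dropped by Cell Ranger, so the level of members with close copies is uncertain and a low count does not show low expression.

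Cells without a Mki67 UMI had lower levels of nearly all clustered histone genes. Summed over all members, the level was 204 CPM without Mki67 and 862 with it, a ratio of 0.237 (0.231 to 0.242), and 0.215 and 0.254 within suffix 1 and suffix 2. Of the 33 members with at least 100 UMIs, 30 were lower without Mki67 by 1.5-fold or more in the pooled cells and in each library, where 7.29% of the 11708 genes with as many UMIs were. None was higher by 1.5-fold, where 10.3% of all those genes were. The median ratio was 0.190 over the members and 1.04 over all genes. A member can pass 100 UMIs through cycling cells alone, so this count does not speak for the others. Of the 32 detected members below the minimum, 31 also had a lower level without Mki67, the exception being Hist2h2aa2 with 1 UMI. The load of single cells overlapped between the classes: the median cell without Mki67 had 1.47 member UMIs per 10000 UMIs and the median cell with it 8.17, and 99 cells without Mki67 (3.15%) lay at or above the latter.

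**Figure D1:**
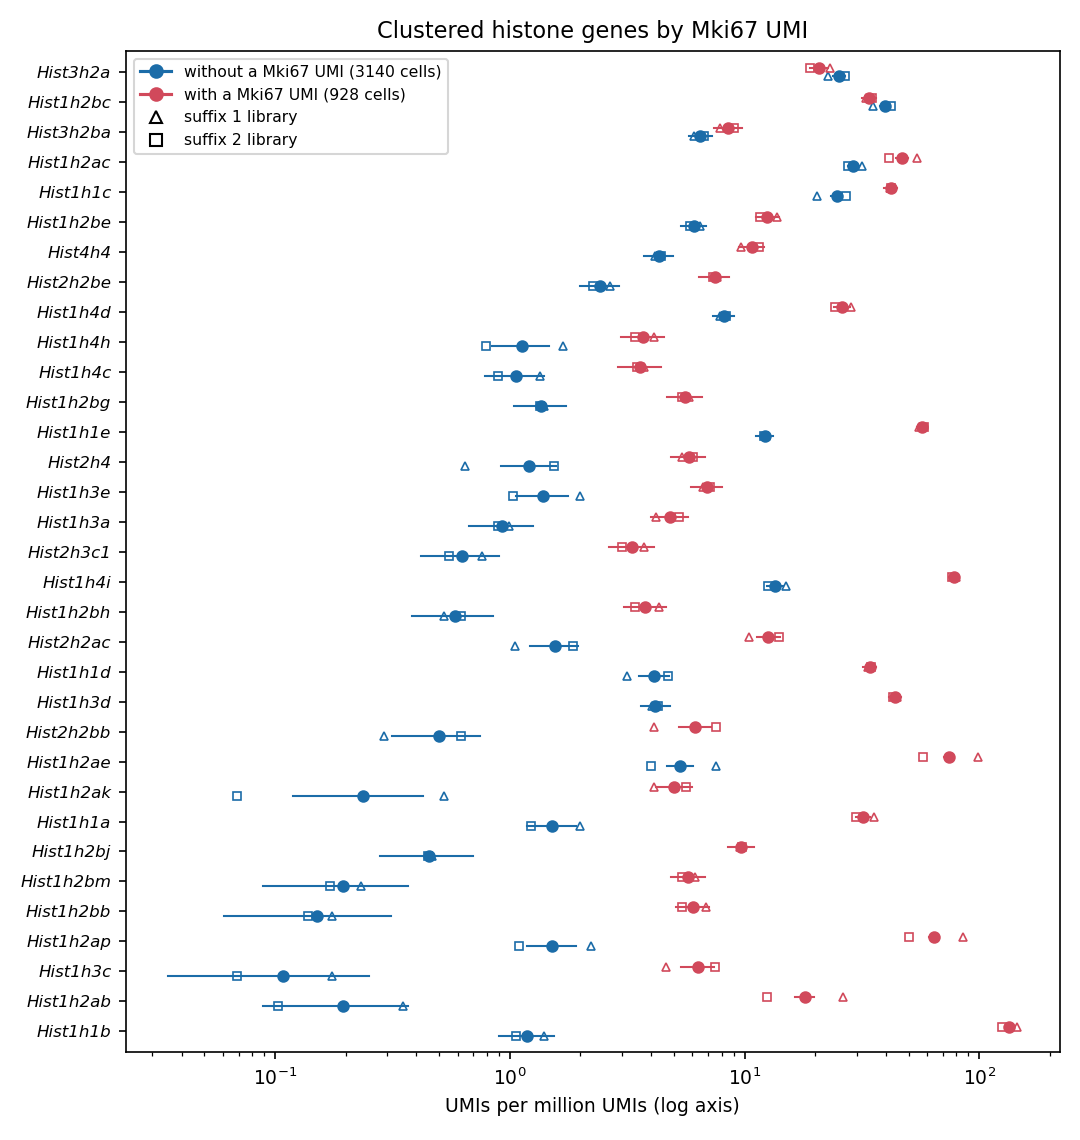
Level of the 33 clustered histone genes with at least 100 UMIs, in CPM on a log axis, in cells without (blue) and with (red) a Mki67 UMI. Filled points are both libraries with 95% counting intervals, triangles and squares are the suffix 1 and suffix 2 libraries, and genes are ordered by their ratio: the colours of the filled points change places only for Hist3h2a and Hist1h2bc at the top, and Hist1h1b at the bottom differs most (1.19 and 133).

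The makeup of the histone RNA differed with the level. Hist1h2bc, Hist1h2ac, Hist3h2a and Hist1h1c together made up 58.1% of the members' UMIs in cells without Mki67 and 16.6% in cells with it. By protein family, the summed H2B genes differed least, at 58.3 CPM without and 105 with Mki67 (ratio 0.554), which rested on Hist1h2bc: the other 17 H2B genes had 18.8 and 71.3 CPM (0.263). The H2A genes had 63.7 and 252 CPM (0.253), the H4 genes 30.2 and 132 CPM (0.228), the H1 genes 43.7 and 299 CPM (0.146) and the H3 genes 8.15 and 74.3 CPM (0.110).

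Among the linker histones, Hist1h1b was close to absent outside cycling cells. It had 1.40 and 1.06 CPM without Mki67 in suffix 1 and suffix 2 and 145 and 125 CPM with it, so that the level with Mki67 was 112-fold (86.0 to 149) that without. Hist1h1a followed with 1.51 CPM without and 32.1 with Mki67, and Hist1h1d with 4.13 and 34.1. Hist1h1e had 12.2 and 57.1 CPM. Hist1h1c stood apart, with 20.4 and 27.2 CPM without Mki67 in the 2 libraries and 41.5 and 42.3 CPM with it, a ratio of 0.588 (0.540 to 0.640). Thus the 5 H1 genes with enough UMIs were all lower without Mki67, over a range from 0.00891 to 0.588.

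The H2A genes covered a wider range, from 0.0108 to 1.22. Hist1h2ab had 9 UMIs in all cells without Mki67 (0.195 CPM) and 453 with it (18.0 CPM), and Hist1h2ap had 1.51 and 64.4 CPM. Hist1h2ae had 5.30 and 74.2 CPM. In cells with Mki67 the level of these 3 genes was higher in suffix 1 than in suffix 2, at 26.2 and 12.5 CPM for Hist1h2ab, 85.5 and 49.98 CPM for Hist1h2ap and 98.5 and 57.6 CPM for Hist1h2ae, and in each library it lay far above that of cells without Mki67. Hist1h2ac had 31.7 and 27.5 CPM without Mki67 and 54.5 and 41.5 CPM with it, a ratio of 0.621 (0.574 to 0.672). For Hist3h2a the level was 22.7 and 26.8 CPM without and 23.2 and 19.1 CPM with Mki67. Its pooled ratio of 1.22 (1.10 to 1.35) came from suffix 2 (1.40), and in suffix 1 the classes were level (0.977, 0.829 to 1.15). Hist3h2a overlaps Trim17 on the same strand, and reads of the shared stretch cannot be told apart.

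Hist1h2bc was the H2B gene with the most UMIs and the other member with a ratio above 1. It had 35.2 and 42.0 CPM without Mki67 in suffix 1 and suffix 2, and 32.8 and 34.8 CPM with it. The ratio was 1.16 (1.07 to 1.26), and 1.07 (0.937 to 1.23) and 1.21 (1.09 to 1.34) within the libraries, well under the 1.5-fold that counted as a difference. In UMIs per cell, which leave the greater depth of cells with Mki67 in place, the order turned, to a ratio of 0.633. With each cell thinned to 9000 UMIs it was 0.839 (2914 of the 3140 and 911 of the 928 cells, which were deep enough). With a Top2a UMI in place of Mki67 the ratio of levels was 3.41. In the fewer cells of a stricter filter (more than 2500 genes, less than 5% mitochondrial UMIs) it was 2.08. Whether Hist1h2bc was higher outside cycling cells thus depended on the scale and on which cells were taken as cycling. It differed from most H2B genes: Hist1h2bb had 0.151 CPM without and 6.01 with Mki67, Hist1h2bm 0.195 and 5.74, and Hist1h2bj 0.454 and 9.68. Hist3h2ba, at 6.48 and 8.52 CPM (ratio 0.761), was the only other H2B gene short of a 1.5-fold difference. Hist1h2be (0.486) and Hist2h2be (0.325) were in between, and Hist1h2be shares strand and position with Hist1h1e.

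For the core histones H3 and H4 the differences were large throughout. Hist1h3d, the H3 gene with the most UMIs, had 4.17 CPM without and 43.8 with Mki67, and Hist1h3c had 5 UMIs without (0.108 CPM) and 159 with it (6.33 CPM). The other 3 H3 genes with enough UMIs had ratios of 0.190 to 0.200. Hist1h4i had 15.05 and 12.6 CPM without and 79.9 and 76.6 CPM with Mki67, a ratio of 0.173 (0.158 to 0.190). Hist4h4, alone at its locus on chromosome 6, had the highest ratio among H4 genes, 0.400 (0.331 to 0.482), from 4.30 and 10.8 CPM. Hist1h4d had 8.15 and 26.0 CPM.

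Among the 33 members, those with long annotated 3′ UTRs had higher ratios. Of the 33 members, 17 had an annotated 3′ UTR of 300 bases or more, with a median ratio without over with Mki67 of 0.295 (range 0.0953 to 1.22). The 13 with a shorter 3′ UTR had a median of 0.0471 (0.0108 to 0.761), and the 3 with none annotated a median of 0.0474 (0.00891 to 0.0805). Spearman's rho between 3′ UTR length and ratio was 0.694 over the 33 members and 0.633 over the 30 with a 3′ UTR. Several members of the group with short 3′ UTRs reached 100 UMIs almost only through cells with Mki67, such as Hist1h2ab with 9 of its UMIs in cells without it, Hist1h2bm with 9, Hist1h2bb with 7 and Hist1h3c with 5, so the minimum itself favours low ratios there. This is a description across genes, which share their cells, libraries and loci and partly overlap, and no p-value is given. A poly(A) signal (AATAAA or ATTAAA) in the last 40 bases of an annotated transcript was found for 11 members, with a median ratio of 0.325, against 0.108 for the other 22. There were exceptions in both directions. Hist1h1d, with the longest annotated 3′ UTR (4931 bases), had a ratio of 0.121, and Hist3h2ba reached 0.761 with 213 bases. The 11 members included Hist1h2ae, whose ratio was 0.0714, and not Hist1h2bc or Hist1h2ac.

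**Figure D2:**
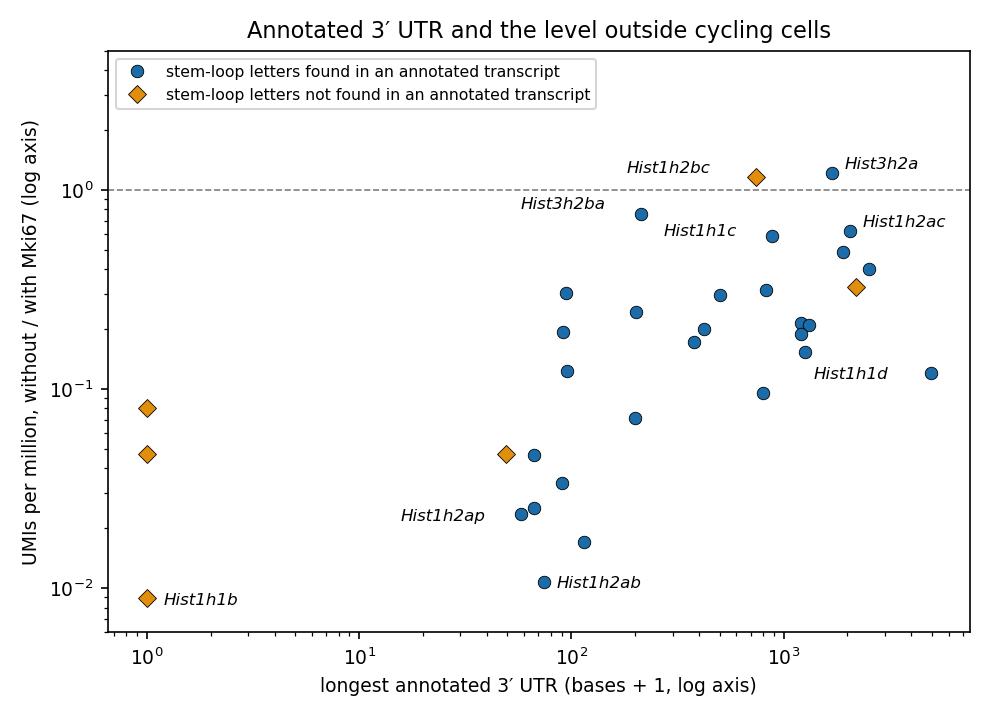
Longest annotated 3′ UTR of each of the 33 members (GENCODE M21, bases plus 1, log axis) against its level in cells without over cells with a Mki67 UMI (log axis). Circles are members with the stem-loop letters in an annotated transcript and diamonds those without, the dashed line marks equal levels, and the points rise from Hist1h1b and Hist1h2ab at the lower left to Hist1h2bc and Hist3h2a at the upper right (Spearman's rho 0.694, n = 33).

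Neighbouring genes with a common promoter region differed in their ratios. There were 13 pairs of members annotated head to head with at most 1000 bases between their starts, 12 of them an H2A and an H2B gene, and in 3 pairs both members had at least 100 UMIs. In Hist1h2ac and Hist1h2bc the ratios were 0.621 and 1.16. In Hist1h2ae and Hist1h2bg, 175 bases apart, they were 0.0714 and 0.244. In Hist2h2ac and Hist2h2be, 238 bases apart on chromosome 3, they were 0.123 and 0.325. The H2B gene had the higher ratio in these 3 pairs, but over all 10 pairs of an H2A and an H2B gene with both ratios it did in 6, many of them on few UMIs.

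A Mki67 UMI does not tell S phase from G2 and mitosis, so the kept cells were also split by 2 gene lists, 18 S phase genes such as Pcna and Mcm2 and 15 G2 and M genes such as Ccnb1 and Plk1, each summed in CPM. A cell was high in a list at or above the 75th percentile of its library. These classes are ranges of a score and not cell types, and 72 and 75 cells of suffix 1 and suffix 2 lay within 10% of the S threshold and 31 and 61 within 10% of the G2/M threshold. The split left 2736 cells high in neither list (2.89% with Mki67), 315 high in the S list only (11.1%), 702 high in both (79.3%) and 315 high in the G2/M list only (81.6%). Summed members had 224 CPM in cells high in neither list, 113 in S only, 739 in S and G2/M and 995 in G2/M only. The highest level was in G2/M only for 21 of the 33 members and in S and G2/M for 12. Some of these 2 levels lay close together, such as 7.19 and 6.74 CPM for Hist2h2be. The share of all genes highest in each class was not computed.

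Hist1h2bc was low in both classes with a high S list. Its level was 41.1 and 49.3 CPM (suffix 1 and 2) in cells high in neither list, 7.11 and 10.5 CPM in S only, 4.07 and 6.00 CPM in S and G2/M, and 92.3 and 105.6 CPM in G2/M only. The libraries gave the same order of high and low classes, with low values wherever the S list was high. Cells high in neither list had 8.74-fold (7.16 to 10.8) the level of cells high in both, and 10.1-fold and 8.22-fold within the libraries. In cells thinned to 9000 UMIs the 4 levels were 46.9, 8.57, 5.60 and 147.9 CPM (2520, 311, 695 and 299 cells), so the classes kept their order at 1 depth. The near-equal levels by Mki67 were thus averages over cells with very different levels of the gene. Within cells with Mki67, the level was 142.8 CPM in neither list (79 cells), 4.48 in S only (35 cells), 6.05 in S and G2/M (557 cells) and 81.9 in G2/M only (257 cells). Within cells without Mki67, it was 42.7 CPM in neither list (2657 cells), 9.83 in S only (280 cells), 1.53 in S and G2/M (145 cells) and 254 in G2/M only (58 cells), the last at 479 and 178 CPM in suffix 1 and suffix 2 (12 and 46 cells). The level was low wherever the S list was high, with or without Mki67. The 2 highest levels, in G2/M only without Mki67 and in neither list with Mki67, had overlapping intervals in suffix 2 (178 and 147 CPM).

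A lower pooled level in S only than in neither was found in 21 of the 33 members, such as Hist1h2ac (16.1 and 31.1 CPM) and Hist1h1c (11.3 and 28.2 CPM). No fold was asked for here, and the share over all genes was not computed. Hist3h2a had 26.6 and 30.9 CPM in neither, 12.6 and 10.1 CPM in S and G2/M and 42.1 and 37.7 CPM in G2/M only, and was 2.65-fold higher in neither than in S and G2/M (2.29 to 3.09). These were the 2 members at or past 1.5-fold in that direction, pooled and in each library, where 16.4% of all genes tested were. In the other direction 27 of 33 were, against 10.9% of all genes. The 4 in neither count were Hist3h2ba (1.12), Hist1h2ac (1.10), Hist1h1c (1.004) and Hist1h4h, which was at 0.507 pooled but at 0.968 in suffix 1. A member can reach the minimum of UMIs almost only through the G2/M classes. Hist1h2ab had 0.105 CPM in neither, 15.5 in S and G2/M and 20.4 in G2/M only. The minimum itself thus favours lower levels in neither, and the shares of all genes are no matched background. Hist1h2ac reached 90.3 CPM in G2/M only, from 31.1 CPM in neither and 28.1 in S and G2/M, and Hist1h1c 66.0 CPM, from 28.2 and 28.1. By contrast, Hist1h1b had 0.684 CPM in neither, 1.88 in S only, 131 in S and G2/M and 109 in G2/M only, and Hist1h2ap 1.45, 1.41, 63.9 and 50.8 CPM. Cells high in the S list alone thus had few UMIs even of the members that were high in cycling cells, 113 CPM over all members. As most of these cells had no Mki67 UMI, the class cannot be taken as cells in S phase.

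**Figure D3:**
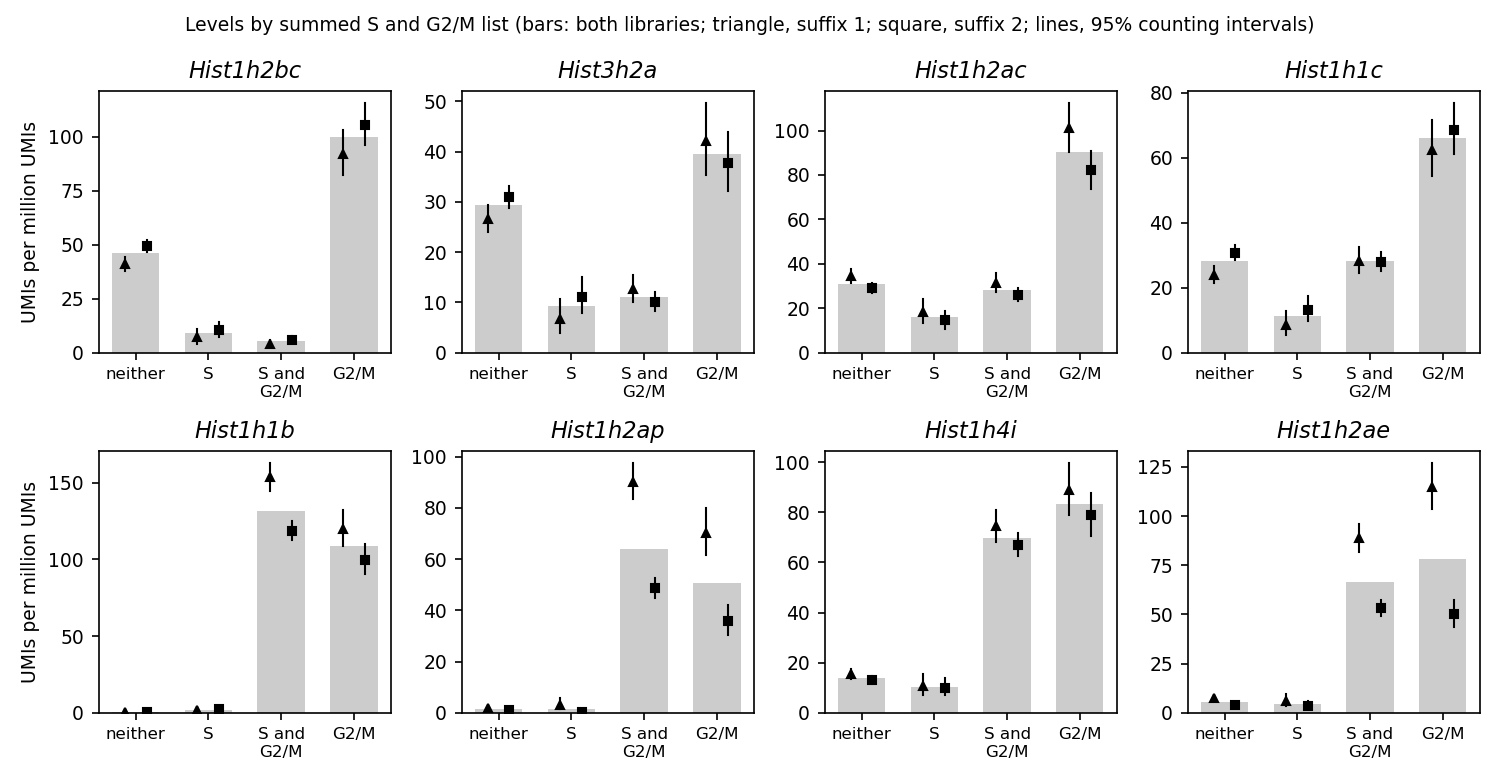
Levels of 8 members in CPM, in cells high in neither list, the S list only (S), both lists, or the G2/M list only (G2/M). Bars are both libraries, triangles suffix 1 and squares suffix 2 with 95% counting intervals, and each panel has its own axis from 0: Hist1h2bc and Hist3h2a are low in both classes with a high S list, while Hist1h1b and Hist1h2ap are near 0 outside the G2/M classes.

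Hist1h2bc UMIs were also unevenly spread over cells. They were found in 980 cells, but 55 cells with 10 or more UMIs each (up to 33) held 916 of the 2681, or 34.2%. Of these 55 cells, 29 had a Mki67 UMI, 31 were high in the G2/M list only, 23 in neither list, 1 in both and none in the S list only. They came from both libraries, 23 of suffix 1 and 32 of suffix 2. Their median depth was 13729 UMIs, close to that of other cells without Mki67 (13808) and under that of other cells with it (27182). The S list summed to 845 CPM in them, 2635 in other cells with Mki67 and 938 in other cells without it, and the G2/M list to 693, 2759 and 87.5 CPM. The gene itself chose these cells, so their Hist1h2bc level is no result, and the other values are a description. Hist1h2ac had 187 CPM in them, Hist1h1c 210 CPM and Hist3h2a 70.0 CPM, against 44.2, 37.6 and 19.8 CPM in other cells with Mki67, while Hist1h1b had 4.12 and 137 CPM. Hist1h2ac came closest among the 14 members examined: 26 cells had 10 or more of its UMIs, 18 of them with Mki67, and 18 were high in the G2/M list only and 6 in neither list. For each of the 8 other members with such cells, all of these cells had a Mki67 UMI, among them 111 cells for Hist1h1b and 29 for Hist1h2ae.

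The tags for CD150 and CD48 were used to divide the cells as stem cells and progenitors are sorted, with CD150-high CD48-low as the SLAM gate of stem cells. CD150 was high at or above the 75th percentile and CD48 low at or under the 25th percentile of a library, over 3986 cells with tags. These percentiles lay at 40 and 407 CD150 tags and at 224 and 42 CD48 tags in suffix 1 and suffix 2, so the gates are relative to each library. The SLAM gate held 555 cells, with 50.0 CPM of Slamf1 (which encodes CD150), 206 of Procr and 1.33 of Cd48. CD150-low CD48-low held 454 cells, CD150-high CD48-high 450 and CD150-low CD48-high 2527. Cells with a Mki67 UMI made up 2.88%, 3.96%, 23.3% and 31.1% of these gates. The shares were 6.98%, 5.39%, 36.8% and 30.04% in suffix 1 and 1.04%, 2.8%, 11.6% and 31.8% in suffix 2, so that in both libraries they were lowest in the CD48-low gates, and members were compared between gates only among cells without it. Within each gate, summed members were lower without than with Mki67, with ratios of 0.376, 0.433, 0.251 and 0.222.

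Among cells without Mki67, a few members were lower in the SLAM gate and a few higher in the CD150-low CD48-high gate, with Hist1h1b and Hist1h1a, low outside cycling cells, among both. In the SLAM gate 6 of 33 members were lower than in the other 3 gates together by 1.5-fold in the pooled cells and in each library (6.32% of all genes): Hist1h1b, Hist1h1a, Hist1h3d, Hist1h3e, Hist1h4h and Hist2h2ac. They rest on few UMIs. The minimum of UMIs was asked of all kept cells, so a member can reach it through cycling cells alone. Of their UMIs in kept cells, Hist1h1b had 55 of 3406 and Hist1h1a 70 of 876 in cells without Mki67. The shares of all genes given in brackets are therefore no matched background. Hist1h1b had 1 UMI in the gate (0.138 CPM, against 1.41, ratio 0.0980 with an interval of 0.00244 to 0.569), Hist1h1a had 2 (0.277 and 1.73 CPM) and Hist1h3d, with the most, 18 (2.49 and 4.50 CPM, ratio 0.554, 0.320 to 0.901). The intervals of Hist1h3e and Hist1h4h reached past 1. Hist2h3c1 was higher (5.88% of all genes), with 7 UMIs and an interval from 0.607 to 4.08, and this call was lost under 8 alternatives, among them doublets left out and all cells of the matrix.

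In the CD150-low CD48-high gate 7 members were higher (4.32% of all genes) and 0 lower (6.69%). They were Hist1h1b, Hist1h1a, Hist2h2ac, Hist1h2bj, Hist1h2bg, Hist1h3a and Hist1h4c. Hist1h1b had 44 UMIs there and 11 in the other gates (ratio 2.71, 1.38 to 5.81), and Hist1h1a 57 and 11 (3.51, 1.82 to 7.41). Hist1h2bj rests on 2 UMIs in the other gates, against 19, and the interval of Hist1h3a reached below 1 (1.75, 0.873 to 3.74). In CD150-low CD48-low, 1 member was higher (Hist2h3c1, with 8 UMIs, against 1.15% of all genes) and 2 were lower (2.57%). In CD150-high CD48-high none was higher (3.18%) and 3 were lower (2.43%). Each gate is set against the other 3, so the gates are not independent of each other. The minimum of UMIs was asked of all kept cells here too, so the shares of all genes are no matched background. The count of 6 members lower in the SLAM gate depended on the processing: it was 3 where cells with any UMI of Mki67, Top2a, Ube2c, Birc5 or Cdk1 were left out, 1 with the 90th and 10th percentiles of the tags, and 0 with percentiles over both libraries and under the stricter filter. The part that cells in cycle without a Mki67 UMI have in these counts was not tested further.

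The order of the gates by Hist1h2bc differed between the libraries. Among cells without Mki67, it had 47.6 CPM in the SLAM gate, 51.1 in CD150-low CD48-low, 44.0 in CD150-high CD48-high and 34.4 in CD150-low CD48-high. In suffix 1 the levels were 25.5, 59.5, 30.4 and 33.2 CPM, and in suffix 2 they were 56.3, 43.9, 53.2 and 35.2 CPM. The SLAM gate was thus the lowest of the 4 in suffix 1 and the highest in suffix 2. Its ratio to the other gates was 1.25 (1.11 to 1.40) pooled, 0.693 (0.511 to 0.922) in suffix 1 and 1.44 (1.26 to 1.65) in suffix 2. Neighbouring levels often lay within each other's intervals, as did those of the SLAM gate and CD150-high CD48-high in each library. Among cells high in neither phase list that overlap did not hold in suffix 1. The level there was 31.8 CPM (24.4 to 40.8) in the SLAM gate and 52.4 CPM (43.1 to 63.1) in CD150-high CD48-high. In suffix 2 it was 56.5 and 55.5 CPM. Cells with 10 or more Hist1h2bc UMIs fell unevenly over the gates: of those without Mki67, 0 were in the SLAM gate, 3 in CD150-low CD48-low, 2 in CD150-high CD48-high and 21 in CD150-low CD48-high. Leaving them out gave 25.5, 31.3, 26.0 and 24.5 CPM in suffix 1 and 56.3, 43.9, 45.9 and 19.2 CPM in suffix 2. As these cells were chosen by the gene's own count, leaving them out lowers the gates that hold them by construction, and no order of the gates is read from these values.

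Hist1h1c, Hist3h2a and Hist1h2ac, which also have long annotated transcripts, differed from each other over the gates. Hist1h1c had 27.0, 26.5, 20.95 and 17.6 CPM over the 4 gates in suffix 1 and 35.3, 34.5, 35.1 and 21.7 CPM in suffix 2, so the CD150-low CD48-high gate had the lowest value in both, within overlapping intervals of CD150-high CD48-high in suffix 1. Hist3h2a had 23.6, 30.8, 25.1 and 20.3 CPM in suffix 1 and 30.8, 32.6, 32.0 and 23.2 CPM in suffix 2. Its lowest levels in suffix 1, in CD150-low CD48-high and the SLAM gate, had overlapping intervals. Among cells high in neither phase list, the level of Hist3h2a in suffix 1 was 24.1 CPM in the SLAM gate and 25.2 in CD150-low CD48-high, so that order did not hold there. In the SLAM gate Hist1h1c had 1.43-fold (1.23 to 1.65) the level of the other 3 gates, and 1.38-fold and 1.40-fold within the libraries. In CD150-low CD48-high the ratio to the other 3 was 0.647 (0.574 to 0.729) for Hist1h1c and 0.742 (0.660 to 0.835) for Hist3h2a, and neither was past 1.5-fold in both libraries. Hist1h2ac had 20.6, 51.4, 29.6 and 29.5 CPM in suffix 1 and 26.4, 24.7, 12.5 and 30.7 CPM in suffix 2, with no order common to both. The CD150-low CD48-low gate also held 57.0 CPM of erythroid genes and 1150 CPM of B and plasma cell genes, against 5.72 and 69.2 CPM in the SLAM gate. B and plasma cell genes were highest in CD150-low CD48-high, at 3989 CPM, the gate in which 7 members were higher and in which Hist1h1c had its lowest values. With the 12 cells rich in these genes left out, 6 members were lower in the SLAM gate, none was higher, and the ratio of Hist1h2bc there was 1.24. The other gates were not recomputed without these cells.

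**Figure D4:**
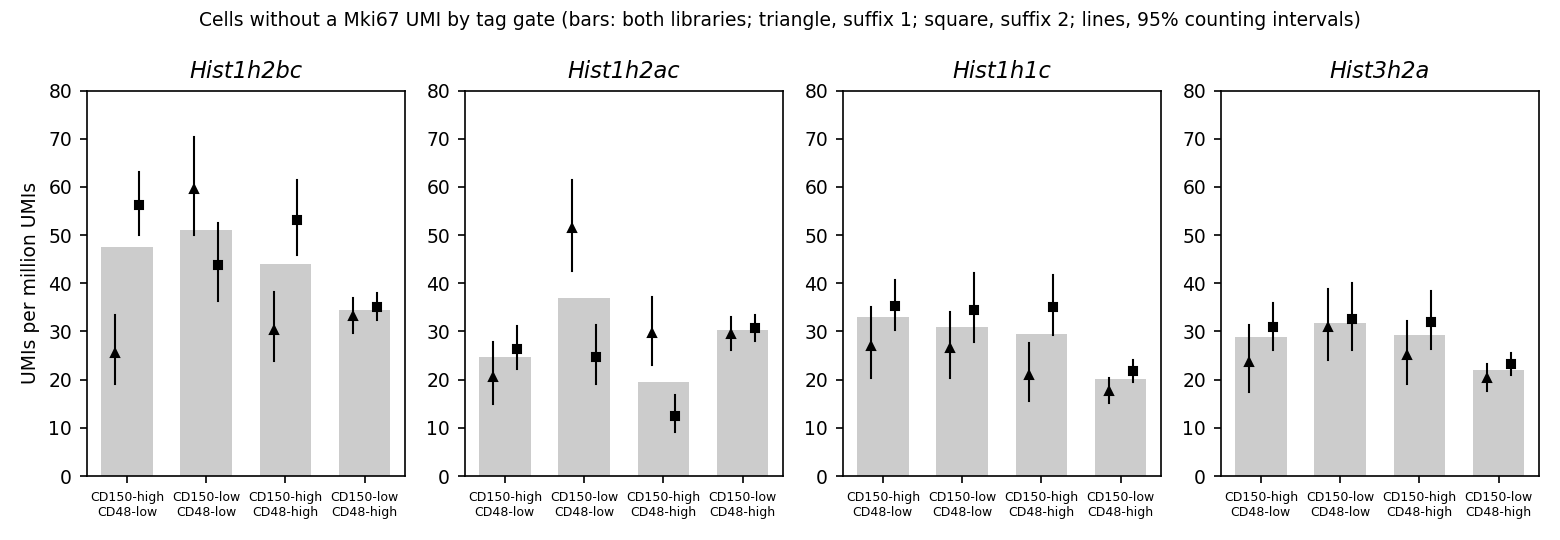
Levels of Hist1h2bc, Hist1h2ac, Hist1h1c and Hist3h2a in CPM in cells without a Mki67 UMI, by tag gate. Bars are both libraries, triangles suffix 1 and squares suffix 2 with 95% counting intervals: Hist1h1c has its lowest values in the CD150-low CD48-high gate (17.6 and 21.7), in suffix 1 with overlapping intervals, and the SLAM gate (leftmost) is the lowest for Hist1h2bc in suffix 1 (25.5) and the highest in suffix 2 (56.3).

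Replacement histone genes outside the clusters were set beside these differences. Their transcripts are usually polyadenylated, while H2afx is known to give a stem-loop transcript as well. Of 11 such genes, 6 were lower without Mki67 by 1.5-fold pooled and in each library and 0 were higher, with a median ratio of 0.564. Over all genes tested, 7.29% were lower and 10.3% higher. H3f3a and H3f3b, which encode the replacement histone H3.3, differed little, at 1700 and 2022 CPM and at 1651 and 1818 CPM. The linker histone H1f0 had 60.5 and 73.3 CPM. H2afz had 775 and 2581 CPM, H2afx 63.3 and 481 CPM, and Cenpa, the H3 variant of centromeres, 18.3 and 214 CPM. Of 18 tested genes (of 19 listed) for histone RNA processing and histone chaperones, 7 were lower and 0 higher, with a median of 0.715. Slbp, which is also in the S list, had 90.7 CPM without and 230 with Mki67, and the chaperones Nasp 73.0 and 214 CPM and Asf1b 6.77 and 64.7 CPM. Hira, a chaperone of H3.3, had 16.8 and 23.1 CPM, and Lsm10, of the U7 particle that cuts histone transcripts, 46.2 and 42.3 CPM. All 18 S phase genes (median 0.382) and all 15 G2 and M genes (median 0.0234) were lower without Mki67. As these are themselves genes of cycling cells, the split by Mki67 largely fixes that outcome.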

How the data were processed

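LSK cells of 1 library per age were profiled by CITE-Seq with the 10x 3′ assay, and the transcripts were counted by the authors with Cell Ranger 3.1.0 (mm10, GRCm38), as the submitters' processing notes name them. The annotation used for counting is not given in the sources used here. The deposited matrix holds UMI counts per gene and cell after the authors normalized the libraries to each other in the aggregation step, so depths are those after it. The deposited tag values are on a log10 scale. A tag count of 0 was placed below all others, and 2 further tag columns were not used. The authors' filter was applied again (under 10% mitochondrial UMIs, over 1500 genes).

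UMIs were summed over cells and divided by all UMIs of these cells (CPM). A gene was counted as higher or lower when its CPM ratio was past 1.5 pooled and in each library, with at least 100 UMIs in the kept cells. A group at 0 UMIs stood at 3 counts as a bound. Counts have exact Poisson intervals, ratios and shares exact binomial intervals. Thinning drew 9000 UMIs per cell and left out shallower cells. Python 3.11.15, numpy 2.4.6, scipy 1.17.1 and pandas 2.3.3 were used. The calls were tried on simulated Poisson counts. These lack the uneven spread of UMIs over cells seen here, so they do not show how the calls behave on these data. Doublets were called with scrublet (scanpy 1.11.5, expected rate 0.06: 5 cells of suffix 1, 0.328%, and 32 of suffix 2, 1.26%) and kept. The share in suffix 1 is too low to say that the caller worked there.

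The members and lists were chosen with earlier results of these data known. Members with values were those past 1.5-fold, the 6 with the most UMIs, Hist1h2bc and members past 1.5-fold in a gate. The S and G2/M classes, the 55 cells rich in Hist1h2bc, Hist3h2a and Hist3h2ba as named genes and the annotation comparisons were added after values had been seen. Transcripts came from GENCODE M21 (GRCm38), promoter windows from RefSeq (GRCm38.p6), matched by older symbols.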

Additional observations from a re-analysis of the deposited data

Results flagged for a closer look

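Results are listed here because the libraries differed in direction. The difference between libraries was not tested, and each library is 1 age whose identity the labels do not give. Hist3h2a had a ratio without over with Mki67 of 0.977 (0.829 to 1.15) in suffix 1 and 1.40 (1.22 to 1.62) in suffix 2. Hist1h2bc had a ratio of the SLAM gate to the other gates, among cells without Mki67, of 0.693 in suffix 1 and 1.44 in suffix 2, on 52 and 292 UMIs in the gate. The tag thresholds that define the gate differed between the libraries as given above.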

How the results depend on the processing

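Alternatives were a stricter filter on cells (more than 2500 genes, less than 5% mitochondrial UMIs), which left 180 cells with and 192 without Mki67, all cells of the matrix, UMIs per cell, thinned cells, other minimums and folds, single libraries, other tag thresholds, other definitions of cycling cells (a Top2a UMI, a UMI of any of 5 cycling genes, at least 2 Mki67 UMIs), doublets left out, and, chosen after seeing the data, immunoglobulin-rich cells left out and the S and G2/M classes. The count of members lower without Mki67, 30 of 33, was 10 under the stricter filter (13 members reached the minimum), 15 in thinned cells (of 19), 46 with a minimum of 20 UMIs (of 50) and 50 without a minimum (of 67). The count of members higher was 1 with Top2a. The summed ratio of 0.237 lay between 0.129 (UMIs per cell) and 0.403 (Top2a) in all alternatives, with 0.221 under the stricter filter, 0.253 in thinned cells, 0.215 and 0.254 in the libraries, 0.399 with any of 5 genes, 0.210 with at least 2 Mki67 UMIs, and 0.303 and 0.225 for cells high in neither list over S and G2/M and over G2/M only.

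Hist1h2bc without over with Mki67 (1.16) turned direction in UMIs per cell (0.633), in thinned cells (0.839) and in cells high in neither list over G2/M only (0.463). It was 2.08 under the stricter filter, 3.41 with Top2a, 1.51 with any of 5 genes, 1.53 with at least 2 Mki67 UMIs and 8.74 in neither over S and G2/M. Its ratio of the SLAM gate to the others (1.25) was 2.27 under the stricter filter, 1.10 in UMIs per cell, 0.693 and 1.44 in the libraries, 1.46 with percentiles over both libraries, 1.01 without cells that had a UMI of any of 5 genes, and 1.09 in cells high in neither list.

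Members higher in the SLAM gate (1) were 2 under the stricter filter and in each library, and 0 with all cells of the matrix, UMIs per cell, a fold of 2, doublets out, medians of the tags, cells with and without Mki67 together, immunoglobulin-rich cells out, and cells high in neither list. Members lower there (6) were 0 under the stricter filter and with percentiles over both libraries, 2 in thinned cells, 13 in suffix 2, 1 with the 90th and 10th percentiles, 23 with all cells with or without Mki67, and 3 without cells that had a UMI of any of 5 genes. These counts rest on few UMIs per gate. Under the stricter filter 13 members reached the minimum, and in thinned cells 19 did. Within a single library the fold was asked of that library alone, a looser rule than that of the main count. The share over all genes was not computed for these settings.

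For the other 32 members, 309 of 320 ratios by Mki67 were below 1 over 10 alternatives each, which leave out the S and G2/M classes, and 5 turned direction: Hist1h1c with Top2a (1.06), Hist3h2a in UMIs per cell (0.663) and in suffix 1 (0.977), and Hist3h2ba with Top2a (1.22) and any of 5 genes (1.19). In cells high in neither list over S and G2/M, Hist1h2ac (1.10), Hist3h2ba (1.12) and Hist1h1c (1.004) were also above 1. The cause of these changes was not tested. No paired analysis was possible because each age had 1 library and no test was run. For the 34 members under 100 UMIs the counts were too few for a call, and a group at 0 stood at 3 counts.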
